A study of Mus musculus with 12 samples.

Results

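The nuclear genome of the mouse is transcribed by 3 RNA polymerases, and the genes described here encode their subunits together with the single-subunit polymerase of mitochondria. The set was taken from the deposited tables by symbol: every gene whose symbol begins with Polr, with at least 120 reads summed over the 12 libraries. This gave 29 genes of 24421 listed, and all 29 passed the filter on low counts that left 12878 genes for testing. They comprise 3 subunits found only in Pol I (Polr1a, Polr1b and Polr1e), 2 shared by Pol I and Pol III (Polr1c and Polr1d), 8 assigned to Pol II alone, 5 shared by all 3 enzymes (Polr2e, Polr2f, Polr2h, Polr2k and Polr2l), 10 found only in Pol III, and Polrmt, the mitochondrial enzyme.

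RNA was sequenced from B220+ splenocytes, the B-lineage fraction of the spleen, of 12 mice aged 4 to 5 weeks, with 1 library per mouse and 3 mice per genotype. The EuMyc Max KO mice carried both the EuMyc transgene and the conditional Max knockout. EuMyc mice carried the transgene with intact Max, Max KO mice carried the knockout without the transgene, and WT mice had intact Max and no transgene. The transgene places Myc under an immunoglobulin heavy chain enhancer active in B-lineage cells, and MAX is the partner with which MYC binds DNA. Which Cre line and which exons of Max were used is not given in the sources used here.

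Pol I makes the precursor of the large ribosomal RNAs, Pol II makes messenger RNA and many small nuclear RNAs, and Pol III makes transfer RNA, 5S ribosomal RNA and other short RNAs. Each enzyme is built around a catalytic pair, the largest and second-largest subunits, with an assembly platform, a stalk and small subunits, some of which are common to all of them. MYC is known to promote transcription by each of them, and ribosome and transfer RNA synthesis rise when B cells begin to grow and divide.

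Reads assigned to genes numbered 14973332 to 21671601 per library, and the lowest count of any polymerase gene in a library was 121. Levels are CPM, that is read counts as a share of the library size scaled by TMM, so they are relative to the RNA sequenced, and in these bulk samples fewer cells of a type and less RNA per cell cannot be told apart. Myc had 514, 565 and 487 CPM in EuMyc Max KO, 975, 1049 and 1007 in EuMyc, 136, 124 and 119.8 in Max KO, and 115, 96.0 and 106 in WT. Max had 108, 104 and 102 CPM in EuMyc Max KO, 126, 127 and 130.0 in EuMyc, 102, 102 and 99.8 in Max KO, and 139, 110.3 and 108 in WT. The knockout libraries were lower than their counterparts with intact Max, by 0.29 on the log2 scale in EuMyc Max KO against EuMyc (SE 0.078, edgeR adjusted p = 0.00462) and by 0.23 in Max KO against WT (SE 0.078, 0.0623, not called). Counts over a whole gene are a weak check of a deletion whose extent is not given. All 8 B cell markers were found in every group, with summed levels of 7604 to 9254 CPM in EuMyc Max KO, 4373 to 5234 in EuMyc, 9323 to 10324 in Max KO and 11043 to 11957 in WT. The summed level of 10 cycling-cell markers was 2432, 1797 and 787 CPM in EuMyc Max KO replicates 1, 2 and 3, 4484 to 5123 in EuMyc, 136 to 177 in Max KO and 316 to 377 in WT. The EuMyc Max KO libraries stood furthest apart from each other: markers of erythroid cells summed to 1959, 1371 and 416 CPM in replicates 1, 2 and 3, against 127 to 149 in EuMyc, and Hbb-bt was at 0 in every library. Monocyte and macrophage markers summed to 1721 to 2578 CPM in EuMyc Max KO, 438 to 533 in EuMyc, 1621 to 2165 in Max KO and 958 to 1133 in WT. The part of these differences in the results below was not tested.

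The polymerase genes as a set were higher with the transgene and lower again where Max was also lost. In EuMyc against WT, 23 of the 29 were called higher and 2 lower at an adjusted p under 0.05 (edgeR's quasi-likelihood test, adjusted by Benjamini-Hochberg over all tested genes), where 36.7% of all tested genes were called higher and 34.9% lower. Their median log2 fold change was 0.70, against 0.01 over all tested genes. In EuMyc Max KO against EuMyc, 0 were called higher and 25 lower, where 37.6% of tested genes were called higher and 36.1% lower, and the median of the 29 was -0.73 against 0.03 over all tested genes. These comparisons share the 3 EuMyc libraries, so they are not independent of each other. Gene by gene, 23 were called higher in the first and lower in the second, Polr2a and Polr3gl were called lower in the first only, Polr2e and Polr3f were called lower in the second only, and Polr3a and Polr3d were called in neither.

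**Figure D1:**
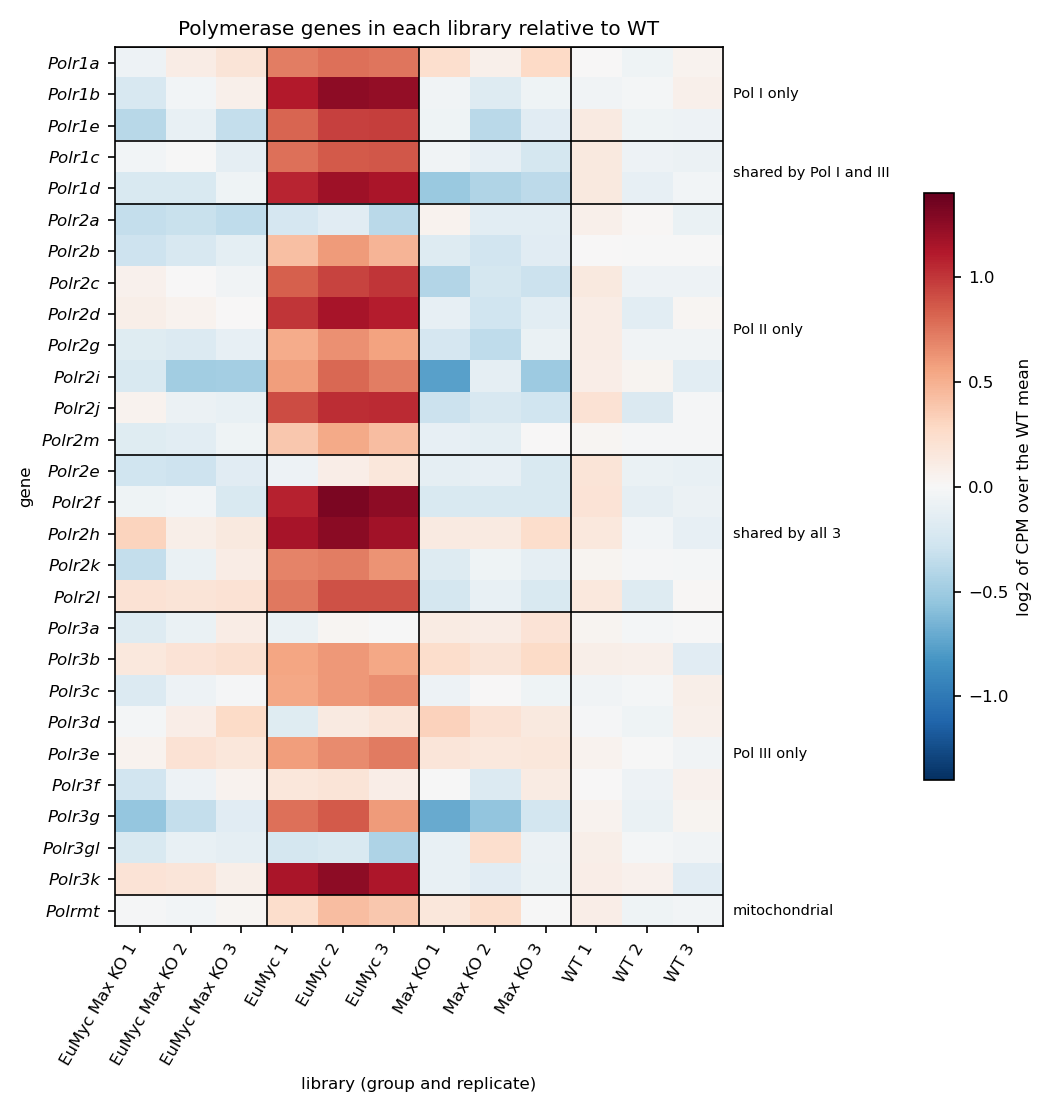
Each of the 28 rows is a polymerase gene and each column a library, coloured by the log2 of its CPM over the WT mean (red higher, blue lower), with genes grouped by the enzyme they belong to. The 3 EuMyc columns are red for most rows, with Polr2a, Polr3gl, Polr3a, Polr3d, Polr2e and Polr3f the pale or blue exceptions, while most rows of the EuMyc Max KO, Max KO and WT columns are paler. Exceptions are Polr2i and Polr3g, blue in several libraries of both knockout groups (down to -0.76 and -0.71 on the log2 scale, both in Max KO replicate 1), and Polr1d, blue in Max KO.

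The canonical E-box, CACGTG, is the sequence that MYC-MAX dimers bind best, so the promoters were searched for it. RefSeq windows on GRCm38.p6 (the mm10 assembly) from 250 bases before to 50 bases after a start site were at hand for 23 of the 29 genes, as 25 windows of 300 bases, and the motif reads the same on both strands. It was found in windows of 4 genes, that is in 16% of the members' windows, against 9.95% of 12509 windows of tested genes and 7.15% of all 32851 windows. The 4 stretches are shown because 3 of these genes were called higher and 1 lower in EuMyc. Capitals mark the motif, each stretch is given 5′ to 3′ on the strand of its gene, and positions count from the RefSeq start site of the window.
Polr3c, chr3:96727651-96727689, minus strand, motif at -237: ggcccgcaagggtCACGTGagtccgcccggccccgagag
Polr3gl, chr3:96594350-96594395, minus strand, motif at -194: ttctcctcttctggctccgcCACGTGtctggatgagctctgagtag
Polr3e, chr7:120917771-120917800, plus strand, motif at 5: ccccgctcccccCACGTGtccggcggagtt
Polr2h, chr16:20717837-20717866, plus strand, motif at 23: cttacttttctcCACGTGagggggtgcgcg
In the other 19 genes with a window, Polr1a to Polr1e among them, these 6 letters do not occur in that window. RefSeq and GENCODE starts can differ. The windows of Polr1d, Polr2b and Polr2f begin downstream of the gene start in GENCODE, so bases before that start were not searched. Polr2d, Polr2g, Polr2k, Polr3a and Polr3d were among the genes with no window in the table used.

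All Polr-named subunits specific to Pol I were higher in EuMyc cells and lower in EuMyc Max KO cells. Polr1a, the largest subunit and part of the active site (chr6:71909053-71984935), had 109.8, 124 and 130.5 CPM in EuMyc Max KO, 189, 197 and 193 in EuMyc, 135, 121 and 139.7 in Max KO, and 115, 111 and 119 in WT. The EuMyc libraries lay above all 9 others. Its log2 fold change was 0.74 (SE 0.070, edgeR adjusted p = 6.65e-07) in EuMyc against WT and -0.67 (SE 0.070, 1.99e-06) in EuMyc Max KO against EuMyc. Polr1b, the second-largest subunit (chr2:129100995-129126594), had 48.3, 55.0 and 59.2 CPM in EuMyc Max KO, 122, 135 and 132 in EuMyc, 54.7, 49.9 and 54.2 in Max KO, and 54.8, 55.3 and 59.5 in WT. Every EuMyc library was above every other library, and EuMyc Max KO overlapped both Max KO and WT. The change was 1.20 (SE 0.078, edgeR adjusted p = 2.04e-08) in EuMyc against WT, the largest of the 6 catalytic subunits of the nuclear enzymes, and -1.26 (SE 0.078, 1.53e-08) in EuMyc Max KO against EuMyc. Polr1e, a subunit of the pair that helps Pol I start and elongate, had 22.3, 27.2 and 23.2 CPM in EuMyc Max KO, 51.4, 56.8 and 57.3 in EuMyc, 28.0, 22.6 and 26.3 in Max KO, and 32.0, 28.0 and 27.8 in WT. All EuMyc libraries were the high ones here too, with log2 fold changes of 0.92 (SE 0.10) in EuMyc against WT and -1.18 (SE 0.10) in EuMyc Max KO against EuMyc.

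The 2 subunits that Pol I and Pol III share form the platform on which each enzyme is assembled. Polr1d had 74.7, 74.5 and 82.8 CPM in EuMyc Max KO, 181, 197 and 191 in EuMyc, 60.4, 64.7 and 67.1 in Max KO, and 95.3, 79.9 and 84.5 in WT. The Max KO libraries were the lowest of the 12 and the EuMyc libraries the highest, with no overlap between Max KO and any other group. Polr1d changed by 1.13 (SE 0.073, edgeR adjusted p = 2.05e-08) in EuMyc against WT, by -1.29 (SE 0.073, 8.07e-09) in EuMyc Max KO against EuMyc, and by -0.43 (SE 0.074, 0.00293) in Max KO against WT on the log2 scale. Its partner Polr1c had 36.8 to 39.9 CPM in EuMyc Max KO, 68.4 to 73.3 in EuMyc, 33.8 to 38.7 in Max KO and 37.8 to 44.1 in WT. Polr1c rose by 0.84 (SE 0.078) in EuMyc against WT and fell by 0.89 (SE 0.078) in EuMyc Max KO against EuMyc on the log2 scale, and it was not called in Max KO against WT, where it changed by -0.13.

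Pol II presented a split between its largest subunit and the rest. Polr2a, which carries the catalytic centre and the long C-terminal domain that is phosphorylated during transcription (chr11:69733997-69758637), had 471, 479 and 463 CPM in EuMyc Max KO, 506, 533 and 459 in EuMyc, 616, 535 and 536 in Max KO, and 624, 603 and 556 in WT. All EuMyc and all EuMyc Max KO libraries lay below all WT libraries, while the EuMyc Max KO and EuMyc libraries overlapped. The log2 fold change was -0.25 (SE 0.076, edgeR adjusted p = 0.00978) in EuMyc against WT, -0.08 (SE 0.076, 0.332) in EuMyc Max KO against EuMyc and -0.34 (SE 0.076, 0.00661) in EuMyc Max KO against WT. Polr2b, the second-largest subunit (chr5:77310147-77349324), had 128, 134 and 142 CPM in EuMyc Max KO, 208, 235 and 218 in EuMyc, 137, 129.9 and 140.0 in Max KO, and 157, 156 and 156 in WT. EuMyc libraries were the highest and the WT libraries lay between them and the overlapping libraries of both knockout groups. Polr2b changed by 0.50 (SE 0.058, edgeR adjusted p = 4.96e-06) in EuMyc against WT and by -0.71 (SE 0.058, 2.02e-07) in EuMyc Max KO against EuMyc on the log2 scale.

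The smaller Pol II subunits had larger log2 fold changes than Polr2b in EuMyc against WT, with the exception of Polr2m. Polr2d, which forms the stalk with Polr2g, had 28.2, 27.6 and 26.9 CPM in EuMyc Max KO, 53.4, 59.5 and 57.5 in EuMyc, 24.7, 22.0 and 24.2 in Max KO, and 28.7, 24.2 and 27.3 in WT. Polr2j, one subunit of the Pol II assembly platform, had 36.1, 32.8 and 32.4 CPM in EuMyc Max KO, 65.7, 71.5 and 71.8 in EuMyc, 28.2, 29.7 and 28.7 in Max KO, and 39.9, 30.2 and 34.3 in WT. Polr2i, a peripheral subunit with a role in accurate and sustained elongation, had 9.95, 8.22 and 8.32 CPM in EuMyc Max KO, 17.3, 20.1 and 19.0 in EuMyc, 6.83, 10.6 and 8.11 in Max KO, and 12.3, 11.9 and 10.4 in WT. For each of these 3 genes the EuMyc libraries stood above all others. On the log2 scale Polr2d changed by 1.09 (SE 0.080) in EuMyc against WT and by -1.04 (SE 0.080) in EuMyc Max KO against EuMyc, Polr2j by 1.0 (SE 0.093) and -1.04 (SE 0.093), and Polr2i by 0.70 (SE 0.15) and -1.09 (SE 0.16). The edgeR adjusted p of Polr2i was 0.00115 in EuMyc against WT, and that of the other 2 was 5.67e-07 or less. Polr2c, the partner of Polr2j in the platform, had 40.0 to 43.2 CPM in EuMyc Max KO and 74.1 to 83.1 in EuMyc. It had 31.3 to 35 CPM in Max KO and 39.4 to 45.5 in WT. Polr2c changed by 0.93 (SE 0.077) in EuMyc against WT and by -0.92 (SE 0.077) in EuMyc Max KO against EuMyc. Polr2g changed by 0.57 (SE 0.074) and -0.73 (SE 0.074) in the same comparisons. Polr2m, a protein that associates with Pol II and is not one of its core subunits, changed by 0.45 (SE 0.058) and -0.57 (SE 0.058). Of the 29 polymerase genes, 10 have exons that overlap a gene on the opposite strand. Among them are Polr2c, with Dok4 by 953 bases, Polr2i, with Tbcb by 325, and Polr2j, with Lrwd1 by 176. Polr1a, Polr2b, Polr2f, Polr2h, Polr3b and Polr3gl have such overlaps of 57 to 247 bases. Whether counting used strand is not given in the sources used here.

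**Figure D2:**
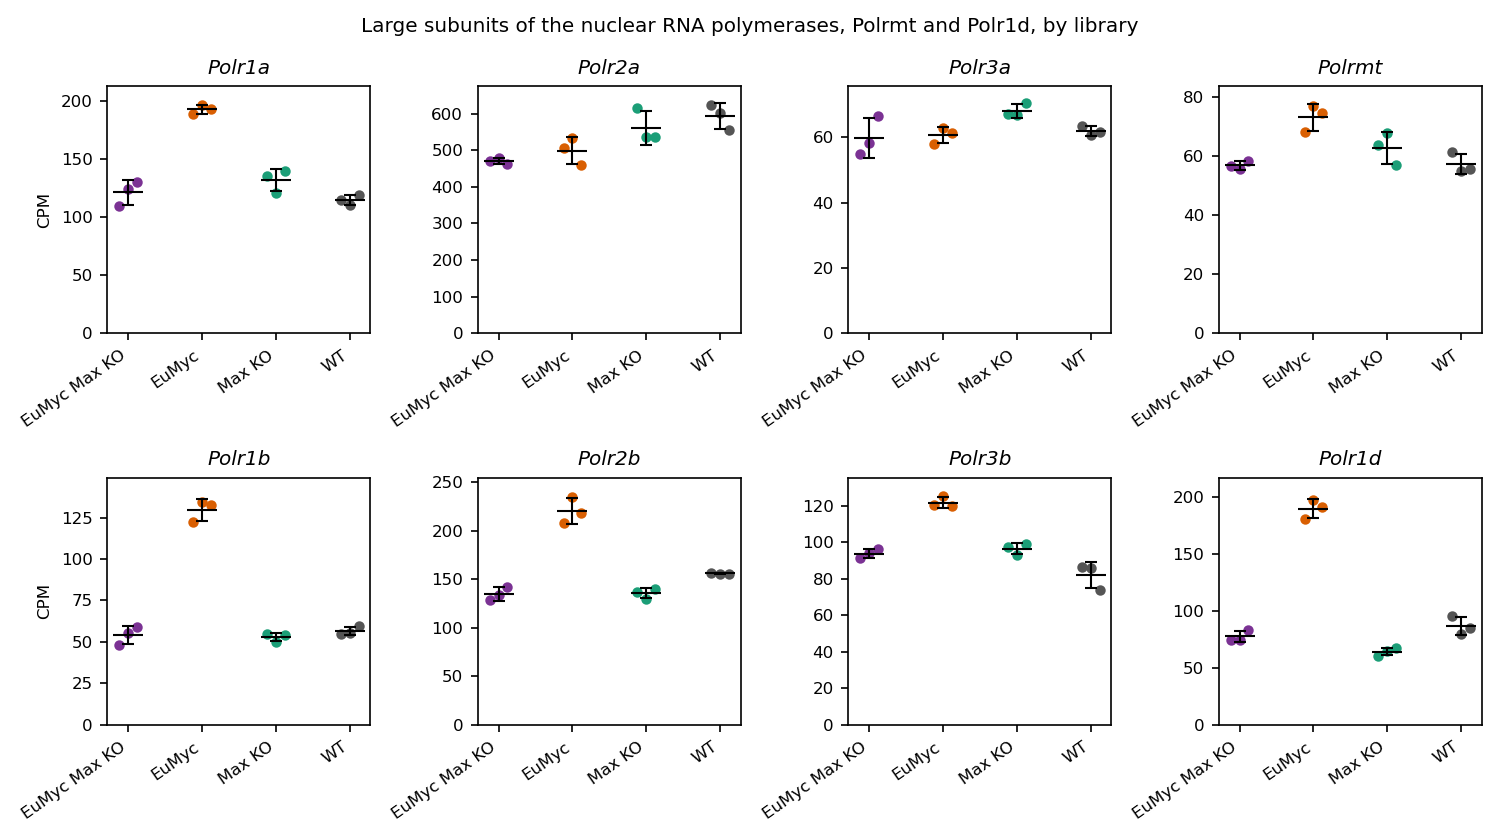
The points are the CPM of single libraries, by genotype, for the largest (top row) and second-largest (bottom row) subunits of Pol I, Pol II and Pol III, for Polrmt (top right) and for Polr1d (bottom right), and the bars are the mean and SD of 3 mice. Polr1a, Polr1b, Polr2b and Polr3b were highest in EuMyc, Polr2a was lower in EuMyc than in WT, and Polr3a overlapped between EuMyc and WT.

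Of the 5 subunits common to all 3 enzymes, 4 were higher in EuMyc than in WT and all 5 were lower in EuMyc Max KO than in EuMyc. Of all tested genes, 36.7% were called higher in the first comparison and 36.1% lower in the second. Polr2f had 21.0, 21.2 and 18.8 CPM in EuMyc Max KO, 46.0, 54.4 and 52.0 in EuMyc, 18.7, 18.8 and 18.7 in Max KO, and 24.9, 19.9 and 20.6 in WT. Polr2h had 22.9, 19.6 and 20.3 CPM in EuMyc Max KO, 41.1, 44.2 and 41.8 in EuMyc, 20.2, 20.1 and 21.9 in Max KO, and 20.4, 18 and 17 in WT. Both were at their highest in the EuMyc libraries, without overlap. On the log2 scale Polr2f changed by 1.22 (SE 0.098, edgeR adjusted p = 1.38e-07) in EuMyc against WT and by -1.32 (SE 0.098, 7.64e-08) in EuMyc Max KO against EuMyc, the largest values among the 29 genes. Polr2h changed by 1.20 (SE 0.090) and -1.02 (SE 0.089), Polr2l by 0.84 (SE 0.088) and -0.64 (SE 0.088), and Polr2k by 0.68 (SE 0.10) and -0.78 (SE 0.10) in the same order. Polr2e was the exception, with 70.0, 69.5 and 76.2 CPM in EuMyc Max KO, 80.6, 90.2 and 95 in EuMyc, 77.5, 78.4 and 73.0 in Max KO, and 96.1, 79.3 and 78.9 in WT. EuMyc and WT overlapped for it, and all EuMyc Max KO libraries lay below all EuMyc libraries. Its log2 fold change was 0.06 (SE 0.085, edgeR adjusted p = 0.52) in EuMyc against WT and -0.30 (SE 0.085, 0.00619) in EuMyc Max KO against EuMyc, and the second value missed the threshold when library totals replaced TMM (adjusted p = 0.0578).

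The 10 Pol III subunits were the most mixed class, with 6 called higher, 1 lower and 3 not called in EuMyc against WT. Of all tested genes, 36.7% were called higher and 34.9% lower there. Polr3a, the largest subunit (chr14:24448696-24487058), had 54.7, 58.2 and 66.4 CPM in EuMyc Max KO, 58.1, 62.8 and 61.4 in EuMyc, 67.2, 66.7 and 70.6 in Max KO, and 63.6, 60.6 and 61.5 in WT. The Max KO libraries were above all others and the other groups overlapped, although no comparison of Polr3a passed the test. Its log2 fold change was -0.03 (SE 0.072, edgeR adjusted p = 0.76) in EuMyc against WT and 0.14 (SE 0.072, 0.214) in Max KO against WT. Polr3b, the second-largest subunit (chr10:84622292-84727178), had 91.3, 94.1 and 96.1 CPM in EuMyc Max KO, 120.3, 125 and 119.9 in EuMyc, 97.3, 93.3 and 99.3 in Max KO, and 86.8, 86.0 and 73.7 in WT. The EuMyc libraries were the highest and the WT libraries the lowest, with both knockout groups overlapping in between. Polr3b changed by 0.57 (SE 0.064, edgeR adjusted p = 3.36e-06) in EuMyc against WT and by -0.38 (SE 0.063, 0.000135) in EuMyc Max KO against EuMyc on the log2 scale.

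The remaining Pol III subunits ranged from no call to more than a doubling. Polr3k, the small subunit that takes part in cleavage of the transcript and termination, had 39.2, 38.5 and 36.2 CPM in EuMyc Max KO, 75.8, 81.4 and 74.7 in EuMyc, 31.9, 30.7 and 32.0 in Max KO, and 36.4, 35.5 and 30.6 in WT. Its EuMyc libraries did not overlap any other group. Polr3k changed by 1.18 (SE 0.076, edgeR adjusted p = 1.93e-08) in EuMyc against WT and by -1.03 (SE 0.075, 6.92e-08) in EuMyc Max KO against EuMyc. Polr3d and Polr3e form a pair that acts in initiation and termination, and they differed: Polr3e changed by 0.66 (SE 0.060, edgeR adjusted p = 4.78e-07) in EuMyc against WT, while Polr3d changed by 0.05 (SE 0.10, 0.677). Polr3d had 26.7, 28.9 and 32.8 CPM in EuMyc Max KO, 24.2, 29.6 and 30.6 in EuMyc, 34.0, 31.3 and 29.9 in Max KO, and 26.9, 26.1 and 28.5 in WT, with EuMyc overlapping every group. Polr3c and Polr3f belong to the trimer that helps open the promoter. Polr3c changed by 0.60 (SE 0.066, edgeR adjusted p = 2.66e-06) in EuMyc against WT, and Polr3f, with 61.9, 62.5 and 58.9 CPM in EuMyc against 55.6, 52.7 and 57.6 in WT, changed by 0.14 (SE 0.091, 0.174). Polr3c fell by 0.69 (SE 0.066) in EuMyc Max KO against EuMyc. The call of Polr3f there, at -0.23 (SE 0.091, edgeR adjusted p = 0.0334), was lost without EuMyc replicate 1 or 2, without EuMyc Max KO replicate 1 or 2, and in 3 other settings (adjusted p as high as 0.286).

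The third member of that trimer is encoded by either of a pair of paralogues, Polr3g and Polr3gl, and these moved in opposite directions. In mammals the form with POLR3G is known from stem and tumour cells and the form with POLR3GL from most adult tissues. Polr3g (chr13:81673843-81711013) had 12.1, 14 and 15.8 CPM in EuMyc Max KO, 30.0, 31.8 and 26.5 in EuMyc, 10.8, 12 and 14.7 in Max KO, and 18.2, 16.5 and 18 in WT. EuMyc was highest and WT next, and both knockout groups lay below every WT library. It changed by 0.74 (SE 0.13, edgeR adjusted p = 0.000183) in EuMyc against WT and by -1.08 (SE 0.13, 7.53e-06) in EuMyc Max KO against EuMyc. Polr3gl (chr3:96577872-96594181), whose E-box stretch is printed above, had 17, 18.5 and 18.1 CPM in EuMyc Max KO, 16.7, 17.1 and 14.7 in EuMyc, 18.4, 23.3 and 18.7 in Max KO, and 20.9, 19.4 and 19.2 in WT. All EuMyc libraries were below all WT libraries, and EuMyc Max KO overlapped EuMyc. The log2 fold change of Polr3gl was -0.30 (SE 0.11, edgeR adjusted p = 0.0253) in EuMyc against WT, a call that was lost without WT replicate 1 or EuMyc replicate 3 (adjusted p of up to 0.101). The EuMyc Max KO libraries differed from EuMyc by 0.15 (SE 0.11, 0.231), which passed the threshold with library totals in place of TMM (0.27 on the log2 scale, adjusted p = 0.0432).

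Per kilobase of exon, Polr3g averaged 3.55 ± 0.468 CPM in EuMyc Max KO, 7.48 ± 0.679 in EuMyc, 3.18 ± 0.515 in Max KO and 4.47 ± 0.232 in WT (SD, n = 3 each). Polr3gl averaged 11.2 ± 0.469, 10.1 ± 0.802, 12.6 ± 1.73 and 12.4 ± 0.595 CPM per kilobase in the same groups, so Polr3gl stayed the higher paralogue per length in every group. That order depends on the length used, all annotated exons of a gene together (3936 bases for Polr3g and 1597 for Polr3gl). In CPM alone Polr3g was the higher in EuMyc, with means of 29.5 against 16.1. The ratio of Polr3g to Polr3gl per kilobase was 0.289, 0.307 and 0.353 in EuMyc Max KO, 0.730, 0.756 and 0.734 in EuMyc, 0.238, 0.209 and 0.320 in Max KO, and 0.353, 0.346 and 0.381 in WT. A ratio within a library does not depend on how libraries are scaled. The EuMyc ratios lay above all others and the Max KO ratios below all WT ratios, and the exact two-sided permutation p of each of these comparisons, 0.1, is the smallest that 3 mice against 3 can give (0.133 after Benjamini-Hochberg adjustment over the 16 ratio comparisons made).

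**Figure D3:**
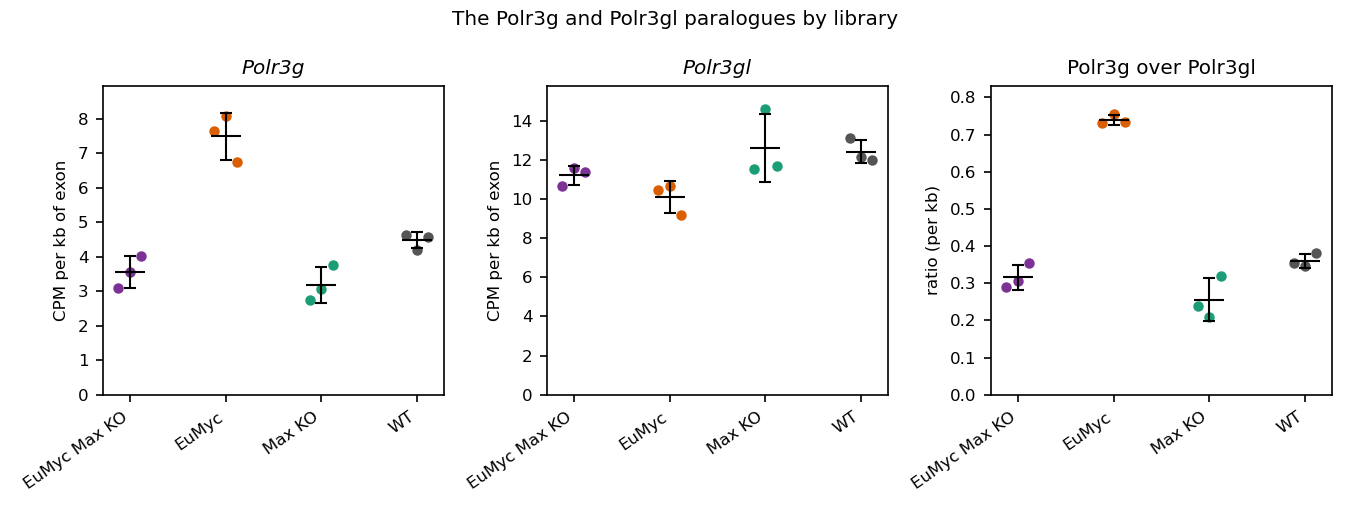
The left and middle panels plot CPM per kilobase of exon for Polr3g and Polr3gl, and the right panel plots their ratio, with points for single libraries and bars for the mean and SD of 3 mice. The ratio averaged 0.740 in EuMyc and 0.360 in WT, and it averaged 0.316 in EuMyc Max KO and 0.256 in Max KO.

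The same measure was taken for the catalytic pair of each nuclear enzyme, as the second-largest subunit over the largest per kilobase of exon. Polr1b over Polr1a averaged 0.911 ± 0.0141 in EuMyc Max KO, 1.38 ± 0.0457 in EuMyc, 0.821 ± 0.0248 in Max KO and 1.0 ± 0.0279 in WT (SD, n = 3 each). These 4 groups did not overlap in any of the 4 comparisons made of them. Polr2b over Polr2a averaged 0.433 ± 0.0281 in EuMyc Max KO, 0.670 ± 0.0470 in EuMyc, 0.367 ± 0.0293 in Max KO and 0.398 ± 0.0227 in WT. Polr3b over Polr3a averaged 1.75 ± 0.128 in EuMyc Max KO, 2.22 ± 0.0669 in EuMyc, 1.57 ± 0.0292 in Max KO and 1.47 ± 0.127 in WT. For each enzyme the EuMyc ratios were above those of both EuMyc Max KO and WT without overlap (exact two-sided permutation p = 0.1 each, the smallest possible, 0.133 after adjustment). Max KO and WT overlapped for the Pol II and Pol III ratios.

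Polrmt, which transcribes the mitochondrial genome, followed the majority with a smaller change. It had 56.6, 55.7 and 58.5 CPM in EuMyc Max KO, 68.3, 77.2 and 74.6 in EuMyc, 64.0, 67.8 and 57.0 in Max KO, and 61.3, 54.9 and 55.9 in WT. EuMyc libraries were above all others. The log2 fold change was 0.35 (SE 0.076, edgeR adjusted p = 0.000992) in EuMyc against WT and -0.36 (SE 0.076, 0.000777) in EuMyc Max KO against EuMyc.

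Set side by side, the classes had median log2 fold changes in EuMyc against WT of 0.92 for Pol I alone (3 genes), 0.98 for the pair shared by Pol I and III, 0.64 for Pol II (8 genes), 0.84 for the 5 common subunits and 0.59 for Pol III (10 genes). For EuMyc Max KO against EuMyc the medians were -1.18, -1.09, -0.83, -0.78 and -0.45 in that order. These classes hold only genes with Polr symbols. They leave out Cd3eap, Twistnb and Znrd1 of Pol I and Crcp of Pol III, which ran between 0.38 and 1.27 in EuMyc against WT. In EuMyc Max KO against EuMyc, Cd3eap changed by -0.52, Twistnb by -0.53 and Znrd1 by -0.66. The Pol I median, range and sum therefore depend on which symbols are counted. The classes are small and their ranges overlapped: Pol I ran between 0.74 and 1.20, Pol II between -0.25 and 1.09 and Pol III between -0.30 and 1.18 in EuMyc against WT, and no difference between classes was tested. Summed over its members, Pol I averaged 199.9 ± 17.2 CPM in EuMyc Max KO, 378 ± 13.4 in EuMyc, 211 ± 14.7 in Max KO and 201 ± 6.40 in WT. Pol II summed to 935 ± 5.79, 1276 ± 63.8, 1012 ± 44.5 and 1103 ± 47.6 CPM in those groups, and Pol III to 441 ± 24, 621 ± 20.6, 454 ± 8.76 and 433 ± 8.87 (SD, n = 3 each). Each class sum was higher in every EuMyc library than in any other library.

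**Figure D4:**
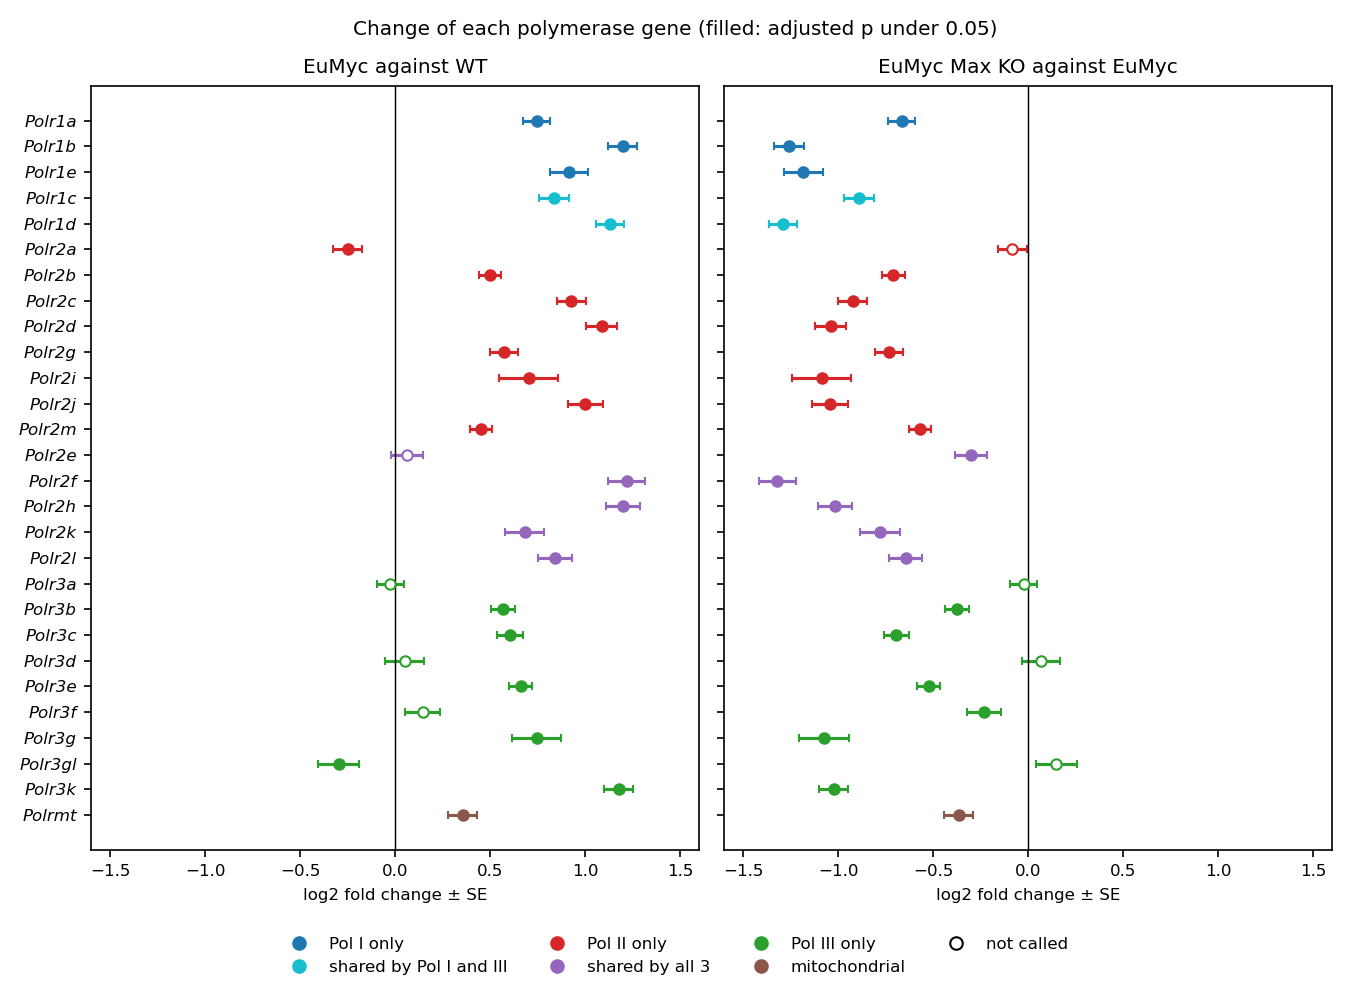
Each point is the log2 fold change of a polymerase gene with its SE, in EuMyc against WT (left) and EuMyc Max KO against EuMyc (right), coloured by class and filled where the edgeR adjusted p was under 0.05. Of the 28 genes plotted, 22 points are filled right of 0 and 2 left of it on the left, and 24 are filled left of 0 on the right. Both panels use the same EuMyc libraries.

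Loss of Max without the transgene was followed by 5 calls among these genes. Their share was close to that of all tested genes, where 1933 of 12878 were called. In Max KO against WT, 1 of 29 was called higher and 4 lower, where 7.27% of tested genes were called higher and 7.74% lower, and their median log2 fold change was -0.12 against 0.00 over all tested genes. Polr1d fell by 0.43 (SE 0.074, edgeR adjusted p = 0.00293), a call that held in every setting tried. The other calls depended on single libraries. Polr3g fell by 0.49 (SE 0.13, edgeR adjusted p = 0.0284) and lost its call when WT replicate 1 or 3, or Max KO replicate 1 or 2, was left out (up to 0.115). Polr2c fell by 0.32 (SE 0.078, edgeR adjusted p = 0.0179), lost without WT replicate 1 or Max KO replicate 1 (0.0825 at most). Polr3b rose by 0.23 (SE 0.064, edgeR adjusted p = 0.0295), lost when WT replicate 3, or Max KO replicate 1 or 3, was left out (0.121 at most). Polr2b fell by 0.20 (SE 0.059, edgeR adjusted p = 0.0381), lost in 10 settings (0.129 at most), which include each WT library and Max KO replicates 1 and 2 left out in turn and the replicate block, with the replicate number as a term of the fit (adjusted p = 0.051). In a fit of Max KO and WT alone Polr2b was called with the block (0.0411) and without it (0.0318), and Polr1a was called higher as well (0.21 on the log2 scale, edgeR adjusted p = 0.024 with the block and 0.0346 without it). The log2 fold changes of the 24 genes not called ran between -0.44, that of Polr2i, and 0.22, that of Polr3d. The summed cycling markers in Max KO, 136 to 177 CPM against 316 to 377 in WT, lay on the side of the lower calls, and their part was not tested.

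Whether Max loss acted differently with and without the transgene was tested directly as an interaction, the effect of Max loss in EuMyc mice minus that in mice without the transgene. Here 0 of 29 genes were called higher and 23 lower, where 27.8% of tested genes were called higher and 27.9% lower. The median of the 29 was -0.65 against 0.02 over all tested genes. These 23 are the genes called higher in EuMyc against WT and lower in EuMyc Max KO against EuMyc. The same EuMyc libraries enter each of these tests, so the interaction is not independent of them. Among the strongest values were those of Polr2h (-1.19, SE 0.13), Polr1b (-1.17, SE 0.11) and Polr2f (-1.10, SE 0.14), each with an edgeR adjusted p of 2.53e-05 or less. The 6 genes not called were Polr2a (0.00, SE 0.11, edgeR adjusted p = 0.976), Polr2e, Polr3a, Polr3d, Polr3f and Polr3gl. Calls of Polr2i (0.0647 at most) and Polr3g (0.0586) were lost when single libraries were left out: WT replicate 3, Max KO replicate 2, EuMyc replicate 2 or EuMyc Max KO replicate 2 for Polr2i, and Max KO replicate 3 for Polr3g.

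With both alterations present, 3 polymerase genes were called against WT and 5 against Max KO. The share called was below that of all tested genes against WT (3581 of 12878) and close to it against Max KO (1853 of 12878). In EuMyc Max KO against WT, 1 of 29 was called higher and 2 lower, where 17.0% of tested genes were called higher and 10.8% lower, with a median of -0.09. Polr2a fell by 0.34 (SE 0.076, edgeR adjusted p = 0.00661) in every setting tried, Polr2b fell by 0.21 (SE 0.058, 0.0176; up to 0.0733 without EuMyc Max KO replicate 1 or 2), and Polr3b rose by 0.19 (SE 0.064, 0.0409), a call lost in 15 of 20 settings (0.165 at most), every left-out EuMyc or EuMyc Max KO library among them. Log2 fold changes of the 26 genes not called lay between -0.39 and 0.20, with SEs of up to 0.16. In EuMyc Max KO against Max KO, 4 of 29 were called higher and 1 lower, where 10.7% of tested genes were called higher and 3.69% lower, with a median of 0.01. Polr2l rose by 0.38 (SE 0.090, edgeR adjusted p = 0.0134), Polr2c by 0.32 (SE 0.078, 0.0156), Polr1d by 0.27 (SE 0.074, 0.0279) and Polr3k by 0.27 (SE 0.076, 0.0332), and Polr2a fell by 0.26 (SE 0.076, 0.0416). Each of these 5 calls was lost without Max KO replicate 1, and each also without at least 1 other library (adjusted p of 0.0618 at most for Polr2l and 0.172 at most for Polr2a).

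Within EuMyc Max KO the replicates differed in the summed cycling markers, with 2432, 1797 and 787 CPM in replicates 1, 2 and 3, all below the 4484 to 5123 CPM of EuMyc. The polymerase genes called in EuMyc Max KO against EuMyc were also below the EuMyc range in all 3 libraries. Those calls were made on these same libraries, so this is not a separate result. With replicate 1, 2 or 3 left out in turn, 24, 24 and 25 of the 29 genes were called lower in EuMyc Max KO against EuMyc. With all libraries in, 36.1% of all tested genes were called lower in that comparison. Genes differed in which replicate was highest: Polr1b had 48.3, 55.0 and 59.2 CPM in replicates 1, 2 and 3, and Polr2c had 43.2, 41.7 and 40.0. Between EuMyc, at 4484 to 5123 CPM, and WT, at 316 to 377 CPM, the summed cycling markers moved with the polymerase genes. In EuMyc Max KO against WT they were higher in all 3 libraries, and 1 polymerase gene was called higher and 2 lower. Of all tested genes, 17.0% were called higher and 10.8% lower there. The part of cycling cells in these differences was not tested.

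Genes that work with the polymerases were read from lists chosen by role. Subunits of Pol I and Pol III listed under older names, Cd3eap, Twistnb and Znrd1 of Pol I and Crcp of Pol III, were 4 of 4 higher in EuMyc against WT (median log2 fold change 0.42) and 4 of 4 lower in EuMyc Max KO against EuMyc (-0.52). Cd3eap, the partner of Polr1e, changed by 1.27 (SE 0.10, edgeR adjusted p = 1.79e-07) in EuMyc against WT and by -0.52 (SE 0.10, 0.000465) in EuMyc Max KO against EuMyc. Unlike Polr1e, which changed by -0.27 (SE 0.10, edgeR adjusted p = 0.0696) in EuMyc Max KO against WT and by -0.19 (0.236) in Max KO against WT, Cd3eap was called higher in both, at 0.75 (SE 0.10, 0.000613) and 0.68 (SE 0.10, 0.00168). Cd3eap overlaps Ercc1 on the opposite strand, and reads of both genes could not be told apart without the strand setting. Of 7 tested Pol I factors, 3 were higher and 0 lower in EuMyc against WT (median over the list -0.05). In EuMyc Max KO against EuMyc, 3 were lower and 0 higher (-0.21). Both shares of 3 were close to the 36.7% and 36.1% of all tested genes called in those directions. In the opposite directions 34.9% and 37.6% of all tested genes were called. The 3 called factors were Rrn3, which brings Pol I to the promoter (0.54, SE 0.055, and -0.60, SE 0.055), Taf1d (0.99, SE 0.12, and -0.97, SE 0.12) and Ubtf (0.38, SE 0.061, and -0.48, SE 0.061).

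Of 16 Pol III factors, 7 were higher and 1 lower in EuMyc against WT, and 0 higher and 10 lower in EuMyc Max KO against EuMyc, with medians of 0.15 and -0.28. Over all tested genes 36.7% were higher and 34.9% lower in EuMyc against WT, and 37.6% higher and 36.1% lower in EuMyc Max KO against EuMyc, so the share of Pol III factors called higher in EuMyc lay close to that of all genes. Gtf3a, the factor specific to 5S genes, changed by 1.24 (SE 0.090) and -1.35 (SE 0.090), and Gtf3c4 by 1.12 (SE 0.070) and -1.13 (SE 0.070). Maf1, the repressor of Pol III, fell by 0.28 (SE 0.073, edgeR adjusted p = 0.0238) in Max KO against WT, a call lost with WT replicate 1 or 2 or Max KO replicate 1 or 3 left out (0.104 at most). Among 18 general factors of Pol II, 17 were higher in EuMyc against WT and 17 lower in EuMyc Max KO against EuMyc, with medians of 0.62 and -0.72. Ccnh, the cyclin of the kinase module of TFIIH, changed by 1.12 (SE 0.072) and -0.99 (SE 0.071), and Gtf2h4, another TFIIH subunit, by 1.05 (SE 0.086) and -1.14 (SE 0.086). Of 11 assembly factors, 10 were higher in EuMyc against WT and 10 lower in EuMyc Max KO against EuMyc, with medians of 0.59 and -0.66. Ruvbl2 and Ruvbl1, the ATPases of the complex that assembles polymerases and other machines, changed by 1.62 (SE 0.063) and 1.33 (SE 0.077) in EuMyc against WT and by -1.78 (SE 0.063) and -1.47 (SE 0.077) in EuMyc Max KO against EuMyc. Each of the Pol III, general and assembly factors named for EuMyc had an edgeR adjusted p of 1.77e-07 or less in both comparisons.

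The pausing and elongation factors of Pol II had calls in both directions. In EuMyc against WT, 11 of 21 were higher and 4 lower (median 0.20), against 36.7% and 34.9% of all tested genes. In EuMyc Max KO against EuMyc, 3 were higher and 15 lower (median -0.37), against 37.6% and 36.1% of all tested genes. Ell2, an elongation factor known for its role in antibody-secreting cells, ran against the polymerase genes: it changed by -1.62 (SE 0.12, edgeR adjusted p = 4.64e-08) in EuMyc against WT and by 2.0 (SE 0.12, 9.12e-09) in EuMyc Max KO against EuMyc. Nelfa, a subunit of the pausing factor NELF, changed by 0.87 (SE 0.077, edgeR adjusted p = 3.5e-07) and -1.0 (SE 0.077, 1.03e-07). Eaf2, a partner of ELL proteins, fell by 2.15 (SE 0.25, edgeR adjusted p = 0.00028) in Max KO against WT. Of 8 mitochondrial transcription factors, 2 were higher and 1 lower in EuMyc against WT (median 0.19), both below the shares of all tested genes (36.7% and 34.9%), with Tfb2m, the partner of Polrmt at promoters, at 0.35 (SE 0.075, edgeR adjusted p = 0.000974) and Mterf1a at -0.72 (SE 0.17, 0.00229). Between EuMyc Max KO and EuMyc, 3 were lower and 1 higher (median -0.20), against 36.1% and 37.6% of all tested genes, with Tfb2m at -0.30 (SE 0.074, edgeR adjusted p = 0.00291) and Mterf1a at 0.56 (SE 0.17, 0.0112).

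**Figure D5:**
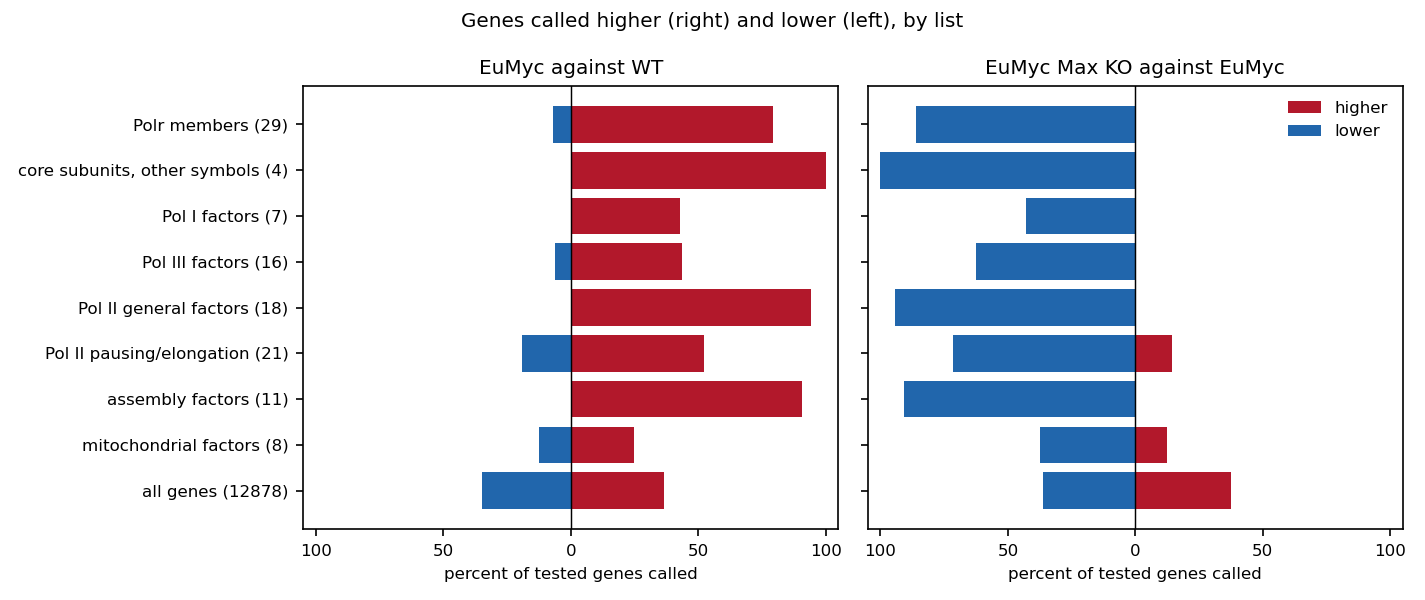
Bars give the percent of tested genes of each list called higher (right of 0) or lower (left of 0), in EuMyc against WT and in EuMyc Max KO against EuMyc, with the number of tested genes in brackets and all 12878 tested genes in the bottom row. The polymerase genes, the core subunits with other symbols, and the Pol I, Pol III, general and assembly factors show all or nearly all calls in a single direction. The pausing and elongation factors and the mitochondrial factors have calls in both directions. All tested genes are split into 36.7% higher and 34.9% lower in EuMyc against WT.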

How the data were processed

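Each of the 12 libraries held RNA of B220+ splenocytes from 1 mouse, 3 mice per genotype, per the labels. The deposited values are raw read counts per gene symbol, made by the authors before any normalization. Per the submitters' processing notes, bcl2fastq 1.8.4, TopHat2 2.1.0 and HTSeq 0.6.1 were used, with genome build mm10. Which annotation and strand setting the counting used is not given in the sources used here. Rows that name no gene, 5 per table, held 34.9% to 45.4% of the reads and stayed out of library sizes and tests.

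In R 4.3.3 with edgeR 4.0.16, filterByExpr removed low genes, TMM set the library sizes, and all 12 libraries entered a single robust quasi-likelihood fit (glmQLFit, glmQLFTest), with Benjamini-Hochberg adjustment over 12878 genes. Residual degrees of freedom were 8. The 3 mice against 3 of a comparison cannot give an exact permutation p under 0.1, so calls rest on the pooled spread. Alternatives used RLE, upper-quartile or no scaling factors, no filter, DESeq2 1.42.0, limma-voom with limma 3.58.1, only the groups compared, a replicate block, and each library left out in turn. The pipeline was also run on simulated data with few changed genes, all in a single group and in both directions. In the comparisons with EuMyc most tested genes were called, so that run does not check the scaling there. Exon lengths, coordinates and overlaps are from GENCODE vM21 on mm10.

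Replicate numbers in the titles are shared by the groups. Between Max KO and WT, same-numbered libraries deviated together from their group means, with correlations of 0.244, 0.390 and 0.105, so the numbers may pair these groups. The main fit and the permutations of ratios did not use this pairing, and the replicate block was run as an alternative. The pairing is read from the data and not from the labels. No other pair of groups had all 3 correlations above 0.1.

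Of the 29 polymerase genes, 1 enters the counts, medians and sums but is not reported individually here. Values for each library were given for the 2 large subunits of each nuclear enzyme, Polrmt, Polr3g, Polr3gl and any other reported gene past a log2 fold change of 1 or called against the majority of its class, and for Polr2e, Polr3d and Polr3f, chosen after their values were seen. From each list, called genes with the smallest p were named, up to 3 per comparison. The members and lists were chosen with earlier results of these data known.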

Additional observations from a re-analysis of the deposited data

Results flagged for a closer look

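For 23 polymerase genes the effect of Max loss in mice with the transgene differed from that in mice without it, by edgeR's interaction test with an adjusted p of 0.0247 or less. These are the 23 genes of the interaction test above, which shares its EuMyc libraries with the other comparisons. The values of 22 of them follow. The difference (effect with the transgene minus effect without it, log2) was -0.87 for Polr1a, -1.17 for Polr1b, -0.76 for Polr1c, -0.86 for Polr1d and -0.99 for Polr1e. Among Pol II genes it was -0.51 for Polr2b, -0.60 for Polr2c, -0.86 for Polr2d, -0.51 for Polr2g, -0.65 for Polr2i, -0.78 for Polr2j and -0.49 for Polr2m. The common subunits had differences of -1.10 for Polr2f, -1.19 for Polr2h, -0.66 for Polr2k and -0.46 for Polr2l. Pol III genes had -0.61 for Polr3b, -0.65 for Polr3c, -0.68 for Polr3e, -0.59 for Polr3g and -0.91 for Polr3k, and Polrmt had -0.50. For Polr1a, Polr2h, Polr3b, Polr3e and Polrmt the effects had opposite signs, for example -0.67 with and 0.20 without the transgene for Polr1a, although of the values without the transgene only that of Polr3b passed the test.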

How the results depend on the processing

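The counts of called genes in the comparisons with EuMyc kept within 1.5 times of their values (25 for EuMyc against WT, 25 with EuMyc Max KO set against EuMyc, 23 for the interaction) in every alternative run, with 24 to 25, 24 to 25 and 22 to 24 when each library was left out in turn, and no called polymerase gene changed direction in any comparison. The smaller comparisons moved more. In Max KO against WT, 5 genes were called, 8 with DESeq2 and 1 to 6 with a library left out. In EuMyc Max KO against Max KO the 5 calls became 3 with upper-quartile factors, 2 with only the groups compared and 0 to 5 with a library left out, and in EuMyc Max KO against WT the 3 became 1 to 5. Over all genes, leaving out a library gave 808 to 2563 calls in Max KO against WT (1933 with all libraries), 1057 to 2846 in EuMyc Max KO against Max KO (1853 with all, 851 with only the groups compared) and 2379 to 4236 in EuMyc Max KO against WT (3581 with all). The cause was not tested. With the replicate block, 25 polymerase genes were called in EuMyc against WT and 25 in EuMyc Max KO against EuMyc, and 23 in the interaction. The block gave 4 in Max KO against WT, 5 in EuMyc Max KO against Max KO and 2 when EuMyc Max KO was set against WT. In a fit of Max KO and WT alone, added after seeing the data, the replicate block gave 6, the same number as without the block, and Polr1a was called in both (adjusted p of 0.024 and 0.0346). In the fit of all libraries the block ended the calls of Polr2b in Max KO against WT and Polr3b in EuMyc Max KO against WT, and changed no other call of a polymerase gene. Upper-quartile factors moved the median of all genes by -0.13 in EuMyc against WT, and library totals moved it by -0.10 there and by 0.12 in EuMyc Max KO against EuMyc (log2). The split of all-gene calls in Max KO against WT was 1130 higher and 719 lower with library totals, against 936 and 997 with TMM, and in EuMyc Max KO against Max KO 1215 and 695 with upper-quartile factors, against 1378 and 475. Depth limits little here, since the lowest count of a polymerase gene was 121.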
